A study of Mus musculus with 6 samples.

Results

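Histone deacetylases remove acetyl groups from histone tails and other proteins, and some of them act as the enzymatic part of larger corepressor complexes. The genes described here encode 7 of the zinc-dependent deacetylases (Hdac1, Hdac2, Hdac3, Hdac4, Hdac5, Hdac7 and Hdac9) and the scaffold proteins of corepressor complexes, Ncor1 and Sin3a. They were chosen by name, with earlier results of these data known, and each of the 9 was found among the 13962 genes of the table. The question was whether this machinery shifts together with the TLE3 label.

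The study compared mouse beige adipocytes with and without induced deletion of Tle3, which encodes a corepressor of the Groucho family. Preadipocytes of inguinal white fat (background strain C57BL/6, genotype TLE3F/F CreERT2, immortalized with the large T antigen) were differentiated with insulin, T3, isobutylmethylxanthine, dexamethasone, indomethacin and rosiglitazone. On day 4 they received 500 nM 4-hydroxytamoxifen, to activate the Cre recombinase (libraries labelled knockout, n = 3), or ethanol (controls, n = 3) for 24 hours, and all were harvested on day 10. Every library came from floxed, CreERT2-carrying cells, so the controls carry the same alleles and Cre, and no cells without Cre were given the compound in this series: an effect of 4-hydroxytamoxifen or of Cre activity cannot be told apart from one of the deletion. The labels do not name the promoter of the Cre, the number of immortalized lines, or whether replicates were separate cultures, so p-values speak only of differences among these libraries, and that spread may be technical.

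The class I enzymes HDAC1 and HDAC2 are nuclear and sit in the SIN3, NuRD and CoREST complexes, whereas HDAC3 is the catalytic partner of the nuclear receptor corepressor NCoR1. The class IIa enzymes HDAC4, HDAC5, HDAC7 and HDAC9 have little deacetylase activity of their own, bind MEF2 transcription factors, and are held in the cytoplasm by 14-3-3 proteins once phosphorylated by kinases such as the salt-inducible kinases and protein kinase D. In fat cells NCoR1 is known as a brake on PPARgamma. In Drosophila, Groucho, the founding member of the TLE family, binds the class I enzyme Rpd3.

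Total counts ran from 14606228 to 15933996 in the libraries labelled knockout and from 14832434 to 19294632 in the controls. Tle3 itself went against its label: it stood at 286.9, 288.9 and 294.2 CPM (counts relative to the scaled size of each library) in the libraries labelled knockout, against 151.4, 151.3 and 152.1 CPM in the controls (log2 fold change 0.94, SE 0.038; edgeR adjusted p 3.54e-07). Counts over the whole gene do not measure the deleted exons and cannot check the label, so each direction below rests on the labels. Of the 13192 genes tested with edgeR's quasi-likelihood test, 1629 changed at a Benjamini-Hochberg adjusted p under 0.05, or 12.3%; this count was 962 without knockout 2, 621 without knockout 3, 976 without control 1 and 1068 without control 3. Adipocyte markers were abundant in every library (Fabp4 averaged 5387 ± 659 CPM in the libraries labelled knockout and 4514 ± 657 CPM in controls), and so were proliferation markers (Mki67 averaged 294.6 CPM in the libraries labelled knockout and 294.5 CPM in controls). Of the listed macrophage markers the highest, Cd68, averaged 2.26 CPM in the libraries labelled knockout and 2.19 CPM in controls, and 4 of the 7 macrophage markers and 3 of the 6 endothelial markers had no row in the table.

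None of the 9 deacetylase, Ncor1 and Sin3a genes passed the test for a difference. edgeR called 0 of 9, where the share over all tested genes was 12.3%, and DESeq2 and limma-voom also called 0. At an unadjusted p under 0.05 there was 1 of the 9, Hdac4 (0 by DESeq2), against 27.9% of all tested genes. The fitted differences were small, from 0.875-fold for Hdac4 to 1.06-fold for Hdac1, with 6 genes on the higher side and 3 on the lower side in the libraries labelled knockout. Summed over the 9 genes, the level was from 842.1 to 860 CPM in the libraries labelled knockout and 821.6 to 831.7 CPM in controls. The groups did not overlap in this sum, which was not tested. The 95% interval lay within 1.2-fold in either direction for 7 of the 9 genes, for all but Hdac4 and Hdac9, and within 1.5-fold for all 9; over all tested genes the shares within these limits were 44.6% and 80.3%. The median SE of these 9 genes was 0.049 on the log2 scale, beside 0.071 over all tested genes. A smaller SE by itself narrows an interval. This did not hold for each gene: the SE was 0.070 for Hdac1, 0.071 for Hdac4, 0.070 for Hdac7 and 0.16 for Hdac9. In bulk RNA, fewer cells of a type and less RNA per cell cannot be told apart.

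**Figure D1:**
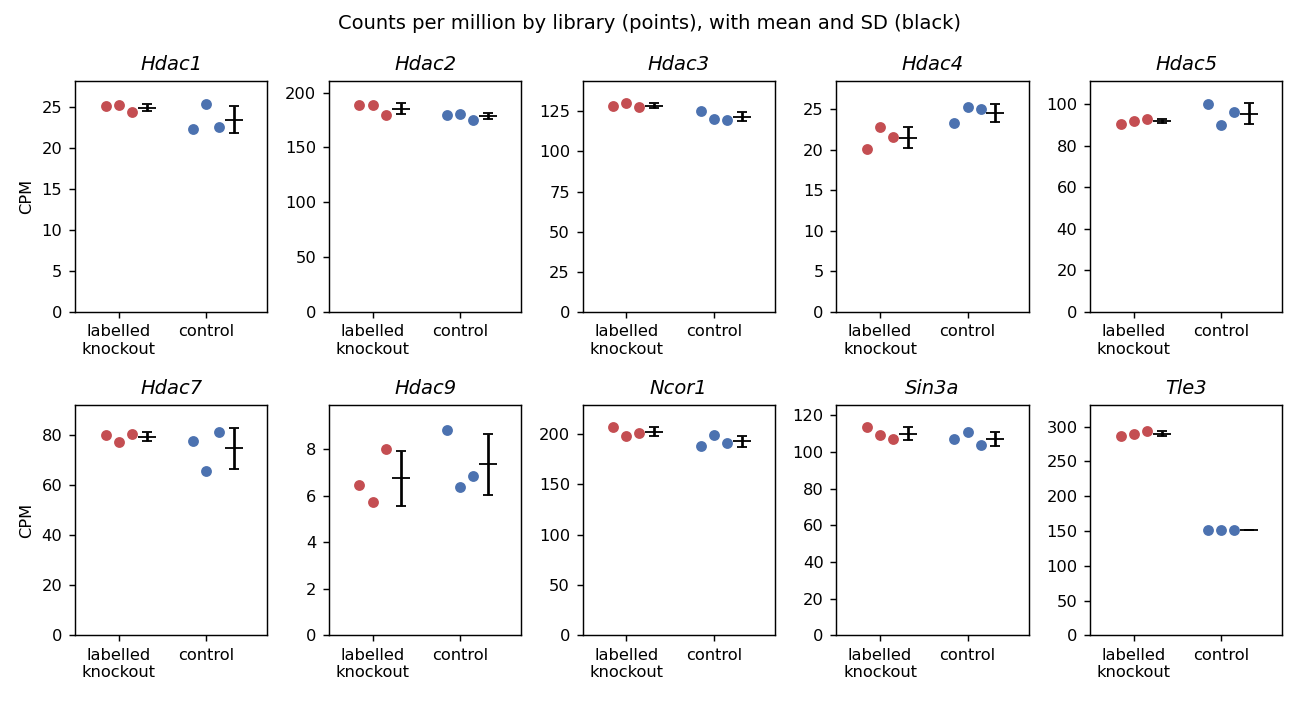
CPM in each library for the 9 genes and, for scale, Tle3; the libraries labelled knockout (red) stand left of the controls (blue), and black marks give the mean and SD of each group (n = 3). The groups overlap for every gene except Hdac3, Hdac4 and Tle3, and Tle3 averages 290 against 151.6 CPM.

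The 9 genes differed widely in level. Set per transcript length, as the length-scaled read level (FPKM) that the authors deposited as whole numbers, Hdac2 was highest, at 39 to 42 FPKM in the libraries labelled knockout and 40 FPKM in each control. Hdac3 followed at 31 to 32 FPKM in the libraries labelled knockout and 30 to 31 FPKM in controls, and Sin3a at 20 to 21 FPKM in the libraries labelled knockout and 19 to 20 FPKM in controls. Ncor1 stood at 15 to 16 FPKM in the libraries labelled knockout and 15 FPKM in each control. Hdac7 stood at 14 to 15 FPKM in the libraries labelled knockout and 12 to 15 FPKM in controls, so these neighbours overlapped. Hdac5 stood at 10 FPKM in each library labelled knockout and 10 to 11 FPKM in controls, Hdac1 at 7 FPKM in all 6 libraries, and Hdac4 at 5 to 6 FPKM in the libraries labelled knockout and 6 FPKM in each control. Hdac9 was listed at 1 FPKM in every library. Apart from Ncor1 and Hdac7, no neighbours in this order overlapped over the 6 libraries. The places of Hdac1 and Hdac4 are less certain. Reads of Hdac1 may be shared with a pseudogene, as described below. A second row named Hdac4, not included here, stood at 4 FPKM in each library labelled knockout and 4 to 5 FPKM in controls.

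**Figure D2:**
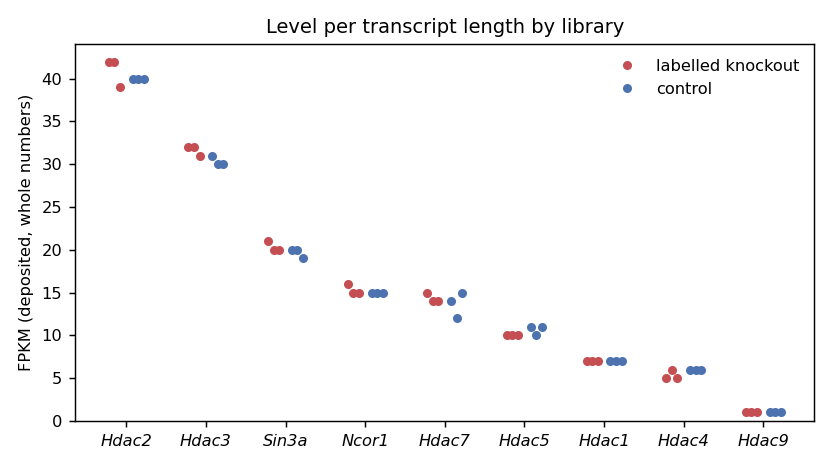
Deposited FPKM, rounded by the authors to whole numbers, for each gene in the 3 libraries labelled knockout (red, left) and the 3 controls (blue, right), ordered by the mean over all libraries. The order runs from Hdac2 at about 40 FPKM to Hdac9 at 1 FPKM, and the libraries of Ncor1 and Hdac7 overlap. The level of Hdac1 is uncertain, and only the row named Hdac4 with more counts is shown.

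Hdac1, the enzyme that joins HDAC2 in the SIN3, NuRD and CoREST complexes, had a count that cannot be taken at face value because the mouse genome holds near-identical processed copies of it. In the GENCODE M21 transcripts (GRCm38), 58.7% of the 50-base windows of the Hdac1 mRNA also occurred in transcripts of other genes, nearly all of them in the pseudogene Gm10093 (1121 of the 1167 shared windows). For Hdac4, Hdac5, Ncor1 and Sin3a this share was from 1.02% to 2.09%, and for Hdac2, Hdac3, Hdac7 and Hdac9 it was 0.0%. Along the 1444 aligned bases of the Hdac1 coding sequence, Gm10093 differed at 9, an identity of 99.4%. Coding bases 423 to 482, counted from the A of the start codon, hold 5 of these differences (in capitals) and show how little separates the transcripts:
Hdac1: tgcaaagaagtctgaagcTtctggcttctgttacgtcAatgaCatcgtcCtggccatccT
Gm10093: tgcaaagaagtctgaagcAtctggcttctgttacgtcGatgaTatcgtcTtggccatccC
The substitutions from Hdac1 to Gm10093 are T441A, A460G, C465T, C472T and T482C. How reads that match both places were counted is not given in the sources used here, so the level of Hdac1 is uncertain.

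With that limit, Hdac1 stood at 25.1, 25.2 and 24.4 CPM in the libraries labelled knockout, against 22.3, 25.4 and 22.6 CPM in the controls. Control 2 lay above every library labelled knockout, so the groups overlapped (log2 fold change 0.09, SE 0.070; edgeR adjusted p 0.439). Without control 2 the log2 fold change was 0.15 (edgeR adjusted p 0.178). Gm10093 had a row of its own, at 5.11, 3.94 and 5.56 CPM in the libraries labelled knockout and 5.08, 3.59 and 3.47 CPM in the controls. Summing both rows, an alternative chosen after the data were seen, gave a log2 fold change of 0.12 (edgeR adjusted p 0.244).

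Hdac2, the closest relative of Hdac1 and the most abundant of the 9 per length, stood at 188.4, 188.4 and 179.3 CPM in the libraries labelled knockout, against 179.7, 180.5 and 175.2 CPM in the controls. Knockout 3 fell among the controls (log2 fold change 0.05, SE 0.040; edgeR adjusted p 0.413), and the 95% interval ran from 0.977-fold to 1.10-fold. Hdac3, the enzyme of the NCoR complexes, was at 128.3, 130.3 and 127.5 CPM in the libraries labelled knockout, against 125.2, 120.4 and 119.8 CPM in the controls. Each library labelled knockout lay above each control, as for 31.8% of all tested genes in one direction or the other, yet the difference of 0.08 on the log2 scale (SE 0.040, 95% interval −0.01 to 0.17) did not pass the threshold (edgeR adjusted p 0.228). The exact permutation test of its CPM (two-sided) gave p = 0.1, and 3 libraries against 3 cannot give a smaller one.

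Among the class IIa enzymes, Hdac4 had the largest fitted difference of the 9 genes. It stood at 20.1, 22.7 and 21.6 CPM in the libraries labelled knockout, against 23.3, 25.2 and 25.1 CPM in the controls. Each library labelled knockout lay below each control, a direction without overlap found in 15.8% of all tested genes. The log2 fold change was −0.19 (SE 0.071, 95% interval −0.35 to −0.04), with an unadjusted p of 0.0205 and an edgeR adjusted p of 0.105 (exact two-sided permutation p = 0.1). Over the other settings and without each library in turn, the adjusted p ran from 0.079 to 0.307.

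The name Hdac4 stood on 2 rows of the table. The values above are from the row with more counts, ENSMUSG00000026313, which is Hdac4 in GENCODE M21. The other row, ENSMUSG00000073617, has no entry there and was at 9.17, 9.82 and 10.4 CPM in the libraries labelled knockout, against 10.2, 9.95 and 10.9 CPM in the controls, where the groups overlapped (log2 fold change −0.08, SE 0.094; edgeR adjusted p 0.613). Their sum, chosen after the data were seen, differed by −0.16 on the log2 scale (edgeR adjusted p 0.118).

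The other class IIa genes overlapped between the groups. Hdac5 was at 90.7, 92.1 and 93.0 CPM in the libraries labelled knockout, against 99.9, 89.8 and 96.5 CPM in the controls (log2 fold change −0.05, SE 0.049; edgeR adjusted p 0.508), with control 2 below the libraries labelled knockout and the other controls above them. Its log2 fold change was −0.016 without control 1 and −0.095 without control 2. Hdac7, known best for its role in thymocytes and endothelial cells, was at 80.2, 77.2 and 80.6 CPM in the libraries labelled knockout, against 77.6, 65.5 and 81.0 CPM in the controls. Control 2 was the low library here, and without it the log2 fold change was 0.0003, where it was 0.08 (SE 0.070; edgeR adjusted p 0.481) with all libraries. Without control 3 it was 0.15 (edgeR adjusted p 0.219). Hdac9, an inhibitor of adipogenic differentiation in cultured mouse preadipocytes, was the scarcest, with 83 to 120 counts in the libraries labelled knockout and 94 to 157 counts in the controls.
In CPM, Hdac9 stood at 6.48, 5.74 and 8.04 in the libraries labelled knockout, against 8.85, 6.36 and 6.84 in the controls (log2 fold change −0.13, SE 0.16; edgeR adjusted p 0.658). Its 95% interval, 0.718-fold to 1.17-fold, was the widest of the 9, and without control 1 its sign turned (log2 fold change 0.03). At this depth a fall of Hdac9 to 0.718-fold lay still within its interval.

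Ncor1, the large scaffold that carries HDAC3 to nuclear receptors not bound by ligand, was at 207.1, 198.1 and 200.8 CPM in the libraries labelled knockout, against 187.8, 198.7 and 191.0 CPM in the controls. Control 2 lay between the libraries labelled knockout (log2 fold change 0.07, SE 0.041; edgeR adjusted p 0.300), and the 95% interval ran from 0.986-fold to 1.12-fold. Sin3a, the scaffold that assembles HDAC1 and HDAC2 with sequence-specific repressors, was at 113.8, 109.4 and 106.9 CPM in the libraries labelled knockout, against 106.9, 110.9 and 103.6 CPM in the controls, and the groups overlapped. Its log2 fold change was 0.04 (SE 0.045; edgeR adjusted p 0.618), and its 95% interval ran from 0.960-fold to 1.10-fold. The log2 fold change was 0.017 without knockout 1, 0.060 without knockout 3, 0.065 without control 2 and 0.018 without control 3. An antisense gene, Man2c1os, overlaps Sin3a in 108 of its 5157 windows of 50 bases (2.09%), and since the strand setting of the counting is not given, reads within that overlap cannot be told apart.

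**Figure D3:**
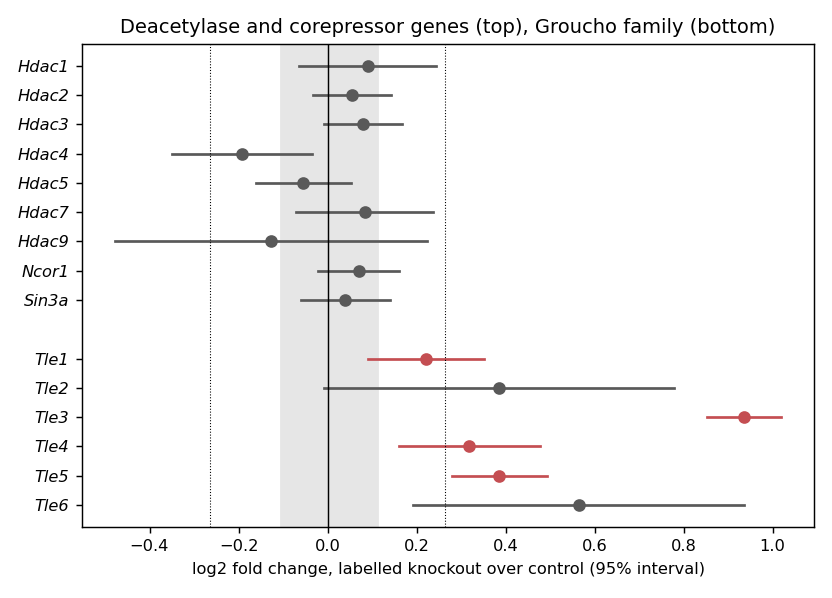
Log2 fold change of the libraries labelled knockout over the controls, with 95% intervals, for the 9 genes (top) and the 6 genes of the Groucho family (bottom); red marks an edgeR adjusted p under 0.05, the grey band spans the interquartile range of all tested genes (−0.10 to 0.11), and dotted lines mark 1.2-fold. Intervals of all 9 genes at the top, except that of Hdac4, include 0, and Tle1, Tle3, Tle4 and Tle5 are the genes in red.

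Genes of the Groucho family were measured in the same fit. Of 6 Groucho family genes 4 rose, Tle3, Tle1 (log2 fold change 0.22), Tle4 (0.32) and the short family member Tle5 (0.39; edgeR adjusted p 0.000889), against 0 of 9 for the deacetylases, Ncor1 and Sin3a; no test compared these lists, and 6.91% of all tested genes rose. Tle1 was not called by DESeq2 (adjusted p 0.0771) or when any 1 library other than control 1 was left out, nor Tle4 when knockout 3 was (adjusted p 0.0828). Of the genes not called, Tle2 (log2 fold change 0.38, adjusted p 0.188) passed with a replicate block (adjusted p 0.0331), and Tle6 (0.56, adjusted p 0.0515) passed with DESeq2 size factors in edgeR (adjusted p 0.0499) and without control 3 (adjusted p 0.0460).

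Ratios of counts between relatives within a library do not depend on how the libraries are scaled, and the groups overlapped for each of the 3 pairs taken. For Hdac4 over Hdac5 the ratio was 0.222, 0.247 and 0.232 in the libraries labelled knockout, against 0.233, 0.281 and 0.26 in the controls (exact two-sided permutation p = 0.2). The ratios of Hdac1 to Hdac2 (0.134 ± 0.00152 in the libraries labelled knockout and 0.131 ± 0.00845 in controls, SD, n = 3 each) and of Sin3a to Sin3b (1.24 ± 0.0654 in the libraries labelled knockout and 1.25 ± 0.0685 in controls) had exact permutation p of 0.6 and 0.8. Over these 3 pairs the adjusted p ran from 0.6 to 0.8, and no p under 0.1 was possible with 3 against 3 libraries. The limit on the Hdac1 count given above carries over to its ratio, and only the row named Hdac4 with more counts was used. These counts were not scaled by transcript length.

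Other genes of the corepressor and acetylation machinery were described as 10 lists of related genes, with 92 of 94 genes tested. Of these, 2 rose and 6 fell, or 8.7%, beside 12.3% of all tested genes (6.91% rose and 5.44% fell), and their median log2 fold change was −0.01, beside −0.0025 over all tested genes. The genes that fell numbered 3 without knockout 2, 3 without knockout 3 and 2 without control 1, and those that rose were 2 or 3 without any single library.

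**Figure D4:**
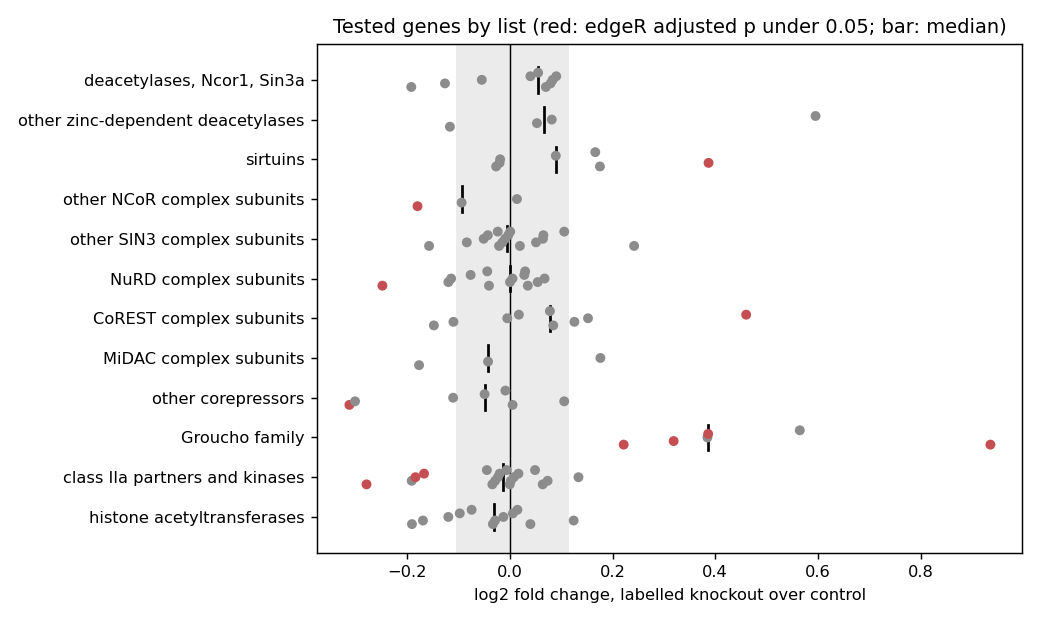
Log2 fold change of every tested gene, by list, with the list median as a black bar; red points passed an edgeR adjusted p under 0.05, and the grey band spans the interquartile range of all tested genes. Of the deacetylases, Ncor1 and Sin3a none is red. Each list of related genes has at most 1 red point, except the class IIa partners and kinases, which have 3. In the Groucho family 4 of 6 are red.

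Among the other NCoR complex subunits, Tbl1x fell and Tbl1xr1 and Gps2 were not called (1 of 3), where 5.44% of all tested genes fell. Tbl1x encodes a WD-repeat subunit that takes part in exchanging corepressors for coactivators. It was at 147.8, 141.2 and 145.1 CPM in the libraries labelled knockout, against 162.7, 161.6 and 167.5 CPM in the controls, with no overlap (log2 fold change −0.18, SE 0.040; edgeR adjusted p 0.0148). Its call was lost without knockout 2, knockout 3 or control 1 (adjusted p 0.0555 to 0.0727).

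In the SIN3 complexes 0 of 16 tested subunit genes changed by edgeR, DESeq2 or limma-voom, where edgeR called 12.3% of all tested genes. An unadjusted edgeR p under 0.05 was found for 2, Suds3 and Morf4l1, beside 27.9% of all tested genes. The median log2 fold change of the 16 was −0.01. The subunit highest per length was Suds3, at 131.3, 132.7 and 138.2 CPM in the libraries labelled knockout and 127.7, 124.3 and 121.8 CPM in the controls (log2 fold change 0.11, SE 0.042; edgeR adjusted p 0.126). Fam60a, also a SIN3 subunit gene, was too low to be tested. In NuRD, which joins HDAC1 and HDAC2 to a nucleosome-remodelling enzyme, 1 of 13 fell, beside 5.44% of all tested genes. This was Gatad2b (log2 fold change −0.25, SE 0.060, edgeR adjusted p 0.0223). It was at 33.4 ± 2.17 CPM in the libraries labelled knockout and 39.7 ± 1.13 CPM in controls (SD, n = 3 each). DESeq2 did not call Gatad2b (adjusted p 0.0528), nor did edgeR when knockout 2, control 1 or control 3 was left out.

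In CoREST, which pairs HDAC1 and HDAC2 with the demethylase LSD1, 1 of 9 genes rose, beside 6.91% of all tested genes. This was Rcor2, a scaffold gene, at 37.8, 46.7 and 39.8 CPM in the libraries labelled knockout, against 30.9, 33.2 and 26.5 CPM in the controls. The groups did not overlap (log2 fold change 0.46, SE 0.094; edgeR adjusted p 0.0105), and the call held under each setting tried and without each library in turn (adjusted p 0.000372 to 0.0382). Of the MiDAC complex, 0 of 3 genes changed by edgeR, DESeq2 or limma-voom, where edgeR called 12.3% of all tested genes. An unadjusted edgeR p under 0.05 was found for 1, Mideas (named C130039O16Rik in the table), beside 27.9% of all tested genes. Dnttip1, the highest per length, was at 27.2 ± 0.324 CPM in the libraries labelled knockout and 28.0 ± 2.39 CPM in controls (SD, n = 3 each).

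Of the 4 other zinc-dependent deacetylases, 0 changed by edgeR, DESeq2 or limma-voom, with 0 at an unadjusted p under 0.05 by any of them. By edgeR these shares were 12.3% and 27.9% of all tested genes. Hdac6, a cytoplasmic tubulin deacetylase and the highest of the 4 per length, was at 37.3, 41.0 and 39.7 CPM in the libraries labelled knockout, against 42.4, 45.7 and 40.1 CPM in the controls (log2 fold change −0.12, SE 0.062; edgeR adjusted p 0.249). Of 7 sirtuins, the deacylases that use NAD instead of zinc, 1 rose, beside 6.91% of all tested genes. Sirt3, the main deacetylase of mitochondria, was at 25.8, 29.2 and 28.5 CPM in the libraries labelled knockout, against 21.9, 20.2 and 21.5 CPM in the controls, with no overlap (log2 fold change 0.39, SE 0.071; edgeR adjusted p 0.0064), and its call held under each setting tried and without each library (adjusted p 0.00271 to 0.0379).

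Among 7 other corepressor genes 1 fell, beside 5.44% of all tested genes. Nrip1, which encodes the nuclear receptor corepressor RIP140, was at 77.3, 73.2 and 75.8 CPM in the libraries labelled knockout, against 89.0, 96.5 and 95.7 CPM in the controls (log2 fold change −0.31, SE 0.048; edgeR adjusted p 0.00251). The groups did not overlap, and the call held under each setting tried and without each library (adjusted p 0.000193 to 0.0188). RIP140 is known in fat as a repressor of mitochondrial and thermogenic genes. Ctbp1, Ctbp2, Lcor, Bcor, Bcl6 and Zbtb16 were not called, with log2 fold changes from −0.30 to 0.11.

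The partners and kinases of class IIa deacetylases held 3 genes that fell among 18 tested, or 16.7%, and 0 that rose. Over all tested genes 5.44% fell and 6.91% rose. Mef2a, a transcription factor that class IIa enzymes bind and repress, was at 293.3, 288.5 and 295.4 CPM in the libraries labelled knockout, against 355.6, 368.5 and 340.9 CPM in the controls. The gap between its groups was wider than the spread within either (log2 fold change −0.28, SE 0.043; edgeR adjusted p 0.00249), and the call held under each setting tried and without each library (adjusted p 1.83e-05 to 0.0206). Mef2c and Mef2d were not called (log2 fold changes 0.13 and 0.02). The kinase genes Prkd3 (log2 fold change −0.17; edgeR adjusted p 0.0196) and Camk2d (−0.18; edgeR adjusted p 0.0215) also fell, but both calls were lost without knockout 3 or control 1, that for Prkd3 also without knockout 1 and with DESeq2 (adjusted p 0.0525), and that for Camk2d also without knockout 2. The salt-inducible kinase genes Sik1, Sik2 and Sik3 had log2 fold changes of −0.19, −0.02 and −0.01 and were not called, and the 6 genes of 14-3-3 proteins ranged from −0.03 to 0.07.

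Of 12 histone acetyltransferase and coactivator genes, whose products oppose the deacetylases, 0 changed by edgeR, 0 by DESeq2 and 0 by limma-voom. Over all tested genes edgeR called 12.3%. An unadjusted edgeR p under 0.05 was found for 5 of the 12, beside 27.9% of all tested genes. These were Crebbp, Kat2b, Kat6a and Ncoa3, on the lower side, and Ncoa1, on the higher side, with log2 fold changes from −0.19 to 0.12. Kat5, the highest per length, was at 43.8 ± 1.21 CPM in the libraries labelled knockout and 43.4 ± 3.14 CPM in controls (SD, n = 3 each; edgeR adjusted p 0.907).

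Across the 6 libraries, the related genes whose log2 CPM tracked each of the 9 most closely differed from gene to gene, among 100 candidates. Hdac3 was most like Sirt3 (Pearson r 0.897) and Rcor2 (0.867), Hdac4 like Kat6a (0.863) and Prkd3 (0.85), and Hdac2 like Sirt5 (0.916) and Lcor (0.896). Ncor1 was most like Chd4 (0.911) and Lcor (0.892), Hdac7 like Mta1 (0.935), Hdac5 like Sap130 (0.916), Hdac1 like Mideas (0.87), Sin3a like Sirt5 (0.852) and Hdac9 like Hdac5 (0.719). These values describe 6 points that share the group difference and the scaling, and the highest of 100 values is large in any case.

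Of the lists of cell-state markers, the summed level separated the groups for the thermogenic genes and overlapped between them for the adipocyte, preadipocyte and proliferation markers. Such separation was not particular to the thermogenic genes. Sums of the 9 deacetylase, Ncor1 and Sin3a genes, the sirtuins, CoREST, MiDAC and the Groucho family also separated the groups, on the higher side. Those of the other NCoR subunits, other corepressors and acetyltransferases did so on the lower side. The sums of the other zinc-dependent deacetylases, SIN3, NuRD and class IIa lists overlapped. Summed over 8 thermogenic genes, the level was from 830 to 968.1 CPM in the libraries labelled knockout and from 506.7 to 603.3 CPM in controls, with 5 genes that rose and 1 that fell, Elovl3, beside 6.91% and 5.44% of all tested genes. DESeq2 and limma-voom each called 5 that rose and 0 that fell. Over the 8 listed preadipocyte and fibroblast genes the summed level was from 7988 to 8386 CPM in the libraries labelled knockout and from 8136 to 9328 CPM in controls, with 1 that rose and 2 that fell by edgeR, and of 10 adipocyte markers 2 rose and 1 fell (13382 to 15293 CPM in the libraries labelled knockout and 12000 to 14338 CPM in controls). Among the preadipocyte and fibroblast genes DESeq2 and limma-voom each called 1 that rose and 3 that fell. Of the adipocyte markers DESeq2 called 3 that rose and 2 that fell, and limma-voom 2 that rose and 1 that fell. Of 8 proliferation markers 0 changed by edgeR, DESeq2 or limma-voom (2 with an unadjusted edgeR p under 0.05). Over all tested genes edgeR called 12.3%, and 27.9% had an unadjusted p under 0.05. The part of these marker values in the values of the corepressor genes was not tested.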

How the data were processed

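Poly(A) RNA of 6 cultured mouse libraries was measured, 3 labelled TLE3 knockout and 3 controls, grouped by their titles. Per the file headers, the authors deposited a whole-number read count for each gene. They also deposited FPKM values, per the file headers, which the authors had rounded to whole numbers, so these were handled as a score and used only to compare levels between genes. The submitters' processing notes name Novoalign 2.8, Picard and DESeq2 and the build mm9. Roles of these tools, the read counter, its annotation and its strand setting: not given in the sources used here. The kit was stranded per the labels' protocols. Every row had at least 10 counts in some library, so lower genes had been left out.

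Counts were analysed with edgeR 4.0.16 (R 4.3.3): the package's expression filter (13192 genes kept, 770 set aside), TMM scaling, and the quasi-likelihood test on group alone, with Benjamini-Hochberg adjustment over all tested genes and a threshold of 0.05. The SE is the log2 fold change over the square root of F. Alternatives were DESeq2 1.42.0, limma-voom (limma 3.58.1), other scaling, no filter, each library left out and a replicate block. Scripts were tested on simulated data. The members and gene lists were chosen with earlier results of these data known. All 9 genes, Tle3, the called genes of each list and, in lists without a call, the gene with the highest FPKM are named; further genes were named after their values were seen. A listed gene is not reported here and was left out of the counts over lists. Genes renamed since were found by an older name or, where that failed, by Ensembl ID in GENCODE M21. Libraries within a group differed beyond sampling noise (chi-square over degrees of freedom 2.88 to 7.53). At 14606228 to 19294632 counts per library, a gene at a few CPM rests on few reads and is measured less precisely.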

Additional observations from a re-analysis of the deposited data

How the results depend on the processing

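The 9 deacetylase and corepressor genes stayed uncalled under every alternative run (other scaling, no filter, DESeq2, limma-voom, replicate block, each library left out), with 0 of 9 each time. Their signs held too, except for Hdac9, whose log2 fold change ran from −0.27 to 0.03 without single libraries and turned to 0.034 without control 1. The number of changed genes over the whole table ran from 621, without knockout 3, to 1895, without control 2; it was 962 without knockout 2, 976 without control 1 and 1068 without control 3. The related genes that fell numbered 2 to 7 without single libraries, namely 3 without knockout 2, 3 without knockout 3, 2 without control 1 and 7 without control 2. Why these counts differed was not tested. Correlations of same-numbered deviations were −0.04, 0.19 and 0.03, where those of other pairs ran from −0.235 to 0.227. With 3 libraries per group this cannot settle whether the shared replicate numbers pair the libraries. With a replicate block, 1809 genes changed, 0 of the 9 among them, and Hdac4 had a log2 fold change of −0.19 (edgeR adjusted p 0.0994). Depth limits Hdac9 most, with 83 to 157 counts per library. How reads shared with Gm10093 were counted limits Hdac1.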

Other observations

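Among the histone acetyltransferase and coactivator genes, edgeR called 0, yet in 6 of the 12 the libraries labelled knockout and the controls did not overlap in CPM, beside 31.8% of all tested genes and 2 of the 9 deacetylase and corepressor scaffold genes. All of these 6 were lower in the libraries labelled knockout, namely Ep300 (log2 fold change −0.07), Crebbp (−0.12), Kat2b (−0.19), Kat6a (−0.10), Kat7 (−0.03) and Ncoa3 (−0.17). Their edgeR adjusted p ran from 0.0578 to 0.641, so none passed the threshold, and these genes were picked out after their values were seen.

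Genes of cycling cells were well detected in these immortalized cells. On day 10, Top2a averaged 339.1 CPM in the libraries labelled knockout and 353.8 CPM in controls, and Cdk1 averaged 167.0 CPM in the libraries labelled knockout and 176.3 CPM in controls (edgeR adjusted p 0.351 and 0.284).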
